A study of Homo sapiens with 4 samples.

Results

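The circular RNAs (circRNAs) of HIPK3 and SETD3 were followed by their circBase identifiers, hsa_circ_0000284 and hsa_circ_0000567. They are 2 of 80821 identifiers listed in the deposited table, of which 29586 had at least 1 count. Both were chosen with their counts known, because both were lower in thymoquinone-treated MiaPaCa-2 cells and had ratios nearer to 1 in PANC-1 cells. The ratios of treated to untreated cells are therefore a description and were given no test.

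MiaPaCa-2 and PANC-1 are established human pancreatic ductal adenocarcinoma lines. Thymoquinone (TQ) is a quinone from black seed. MiaPaCa-2 cells received 20 µM TQ and PANC-1 cells 10 µM, both for 24 h, and each line had an untreated control, so that dose and line are confounded. Each line and treatment was sequenced as 1 library, 4 in all, so no difference below has a replicate check, and every interval covers counting error only. Before sequencing, ribosomal RNA was depleted and ribonuclease R was used to digest linear RNA. The host messenger RNAs and marker genes of the lines were not measured, so a lower circle and a less transcribed host gene cannot be told apart. In RNA from bulk cultures, fewer cells of a type and less RNA per cell cannot be told apart either.

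A circRNA forms when the end of an exon is spliced back to the start of the same or an earlier exon, which leaves a ring with no free ends. Only reads that cross this back-splice junction tell the ring from the linear transcript. The deposited counts were taken to be of such reads, which no source used here states. They are called back-splice counts below, with identifiers named ciRNA included. HIPK3 encodes a homeodomain-interacting serine/threonine kinase, and its circle is abundant in many human cells and known as a binder of microRNAs. SETD3 encodes the histidine methyltransferase of actin.

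The table gives identifiers without host genes or coordinates, and the assignment of each identifier to its host and exons is background that was not checked against a circRNA catalogue here. The HIPK3 circle is known to consist of exon 2, and the SETD3 circle of exons 2 to 6, so their positions and sequences were read from the GENCODE 29 annotation and transcripts (GRCh38, transcripts HIPK3-202 and SETD3-202). The junctions are shown because the joining of end to start is what sets each circle apart from its host messenger RNA. Lower case marks the last 15 bases before the back-splice and capitals the first 15 bases after it.
HIPK3 circle junction: atctcggtactacagGTATGGCCTCACAAG
SETD3 circle junction: tataaagtcatccagTCAGAAAAATGGGTA

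The HIPK3 circle lies on the plus strand at chr11:33286413-33287511, as 1 exon of 1099 bases. That exon is longer than 99.4% of 180434 internal exons of protein-coding transcripts, whose median length is 123 bases. The SETD3 circle lies on the minus strand at chr14:99458279-99465813 and joins 5 exons of 73 to 257 bases into 683 bases. The circles thus differ in how they are built, 1 very long exon against 5 mostly ordinary ones. They resemble each other in their surroundings, which did not enter the choice of the 2 circles. The exons and introns of other circles were not compared, so this likeness is not shown to be particular to these 2. The HIPK3 circle is flanked by introns of 28523 bases upstream and 40998 bases downstream, and the SETD3 circle by introns of 14914 and 44344 bases, where the median of 222447 introns is 1703 bases. The SETD3 introns inside the circle are 577 to 2145 bases long. Each circle also holds the start codon of its host, which begins at base 3 of the HIPK3 circle and at base 9 of the SETD3 circle, within the capitals of both junctions. The GC content was 42.0% and 44.2%.

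**Figure D1:**
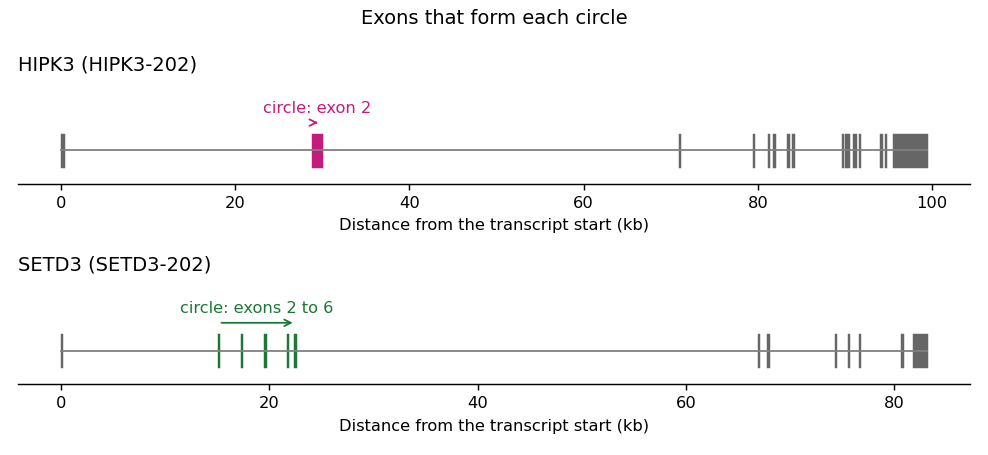
Exons of HIPK3-202 and SETD3-202 drawn to scale as boxes, against the distance from the transcript start in kb, with introns as a line and the exons of each circle in colour under an arrow that points along transcription. Both circles begin at exon 2 and are followed by a long intron, of 40998 bases in HIPK3 and 44344 bases in SETD3.

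Untreated MiaPaCa-2 cells gave 45094 back-splice counts in all and treated ones 15819. Untreated PANC-1 cells gave 48631 and treated ones 67964. The treated MiaPaCa-2 library thus had the fewest back-splice counts, and values in it are the least precise. Whether these totals differ by sequencing, by library preparation or by the amount of circRNA in the cells was not tested. Scaled counts are counts divided by a library factor (TMM, a trimmed mean of ratios between libraries). In MiaPaCa-2 the factor of TQ over control was 0.417, and that of PANC-1 was 1.38. Scaling takes out most of the difference in totals, so a scaled ratio is relative to the other circles. A change shared by most circles would not show in it.

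The HIPK3 circle had 314 counts in untreated MiaPaCa-2 cells and 37 in treated ones. Untreated PANC-1 cells had 383 counts of it and treated ones 531. The treated MiaPaCa-2 library was thus low and the other 3 were high. It was the identifier with the second most counts in MiaPaCa-2 control and stood in place 22 in MiaPaCa-2 TQ, while it kept place 4 in both PANC-1 libraries. In MiaPaCa-2 its share of all back-splice counts was 0.696% without TQ (95% Clopper-Pearson interval 0.622 to 0.777) and 0.234% with TQ (0.165 to 0.322). In PANC-1 the share was 0.788% in control (0.711 to 0.870) and 0.781% in TQ (0.716 to 0.850). In order of scaled counts, PANC-1 TQ with 334.4 (95% Poisson interval 306.6 to 364.1) and PANC-1 control with 333.3 (300.7 to 368.4) could not be told apart. MiaPaCa-2 control followed with 273.9 (244.4 to 305.9), an interval that overlaps that of PANC-1 control, and MiaPaCa-2 TQ was lowest with 77.4 (54.5 to 106.7), apart from the other 3 libraries.

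The SETD3 circle had 48 counts in untreated MiaPaCa-2 cells and 5 in treated ones. Untreated PANC-1 cells had 148 counts of it and treated ones 146, so that both PANC-1 libraries lay above both MiaPaCa-2 libraries. It stood in place 64, 546, 8 and 14 in the same order, and 189 identifiers shared its count of 5 in MiaPaCa-2 TQ. In MiaPaCa-2 its share of counts was 0.106% without TQ (0.0785 to 0.141) and 0.0316% with it (0.0103 to 0.0737). In PANC-1 it was 0.304% in control (0.257 to 0.357) and 0.215% in TQ (0.181 to 0.253). PANC-1 control had the highest scaled count, 128.8 (108.9 to 151.3), and PANC-1 TQ was next with 91.9 (77.6 to 108.1). These were followed by 41.9 (30.9 to 55.5) in MiaPaCa-2 control and 10.5 (3.40 to 24.4) in MiaPaCa-2 TQ. No 2 neighbours in this order had overlapping 95% intervals.

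**Figure D2:**
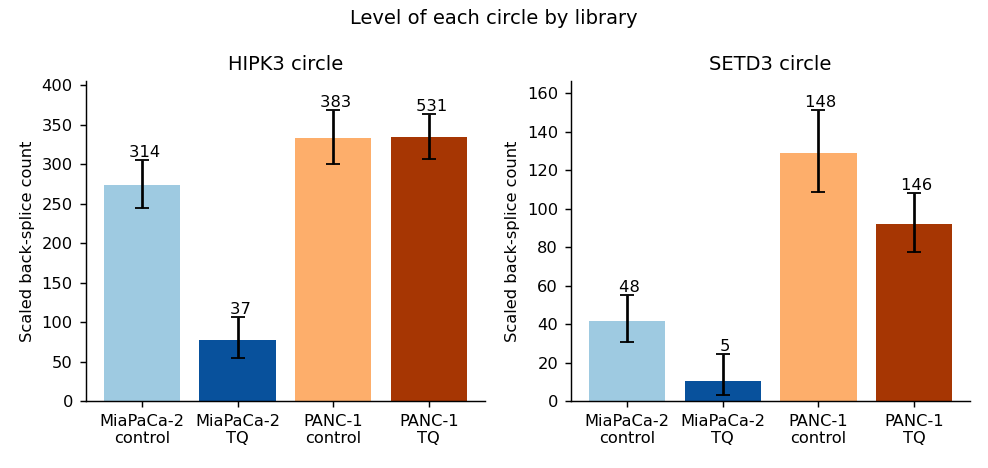
Scaled back-splice count (count divided by the library factor) of the HIPK3 circle on the left and the SETD3 circle on the right in each of the 4 libraries, with the raw count above each bar and 95% Poisson intervals as error bars. The MiaPaCa-2 TQ bar is the lowest for both circles, at 77.4 and 10.5, and the PANC-1 bars are 333.3 and 334.4 for HIPK3 and 128.8 and 91.9 for SETD3.

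In MiaPaCa-2 the scaled ratio of TQ to control was 0.283 for the HIPK3 circle (99% conditional binomial interval 0.173 to 0.438), or 3.54-fold lower. At the level of the control library, 130.9 counts would have stood in the TQ library, where there were 37. The ratio of the SETD3 circle was 0.25 (0.0513 to 0.777), or 4.0-fold lower, with 5 counts where the control level would have given 20.0. The interval of the SETD3 circle was wide because of its 5 counts, and it contained the whole interval of the HIPK3 circle. Both met a rule of size that asked for at least 10 counts over the line, a ratio of at most 0.5 and a 99% interval below 1. That rule called 74 of 1130 identifiers lower in MiaPaCa-2 TQ, or 6.55%. Nothing is read from that share for the 2 circles, since they were chosen on this ratio.

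As a whole, the identifiers tested in MiaPaCa-2 were not centred on a ratio of 1. The median log2 ratio of the 1130 identifiers was -0.32, and it ran from -0.82 to -0.07 over 6 scalings. Against that median the HIPK3 circle stood at -1.5 and the SETD3 circle at -1.68 on the log2 scale, and these differences do not depend on the scaling.

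In PANC-1 cells the HIPK3 circle had a ratio of 1.003 (0.843 to 1.20), with 531 counts in TQ where the control level would have given 529.2. The SETD3 circle had nearly equal raw counts, but the TQ library held more back-splice counts in all. The ratio of the SETD3 circle was 0.714 (0.525 to 0.971), with 146 counts where the control level would have given 204.5. The rule of size was not met. It called 73 of 2289 PANC-1 identifiers lower, or 3.19%. Under 2 of the 6 scalings the interval of the SETD3 circle reached above 1, with ratios of 0.761 (0.559 to 1.04) with DESeq2 size factors and 0.820 (0.603 to 1.12) with TMM over every identifier.

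Divided by its PANC-1 ratio, the MiaPaCa-2 ratio of the HIPK3 circle was 0.282 (99% interval 0.174 to 0.455, from the 4 counts). For the SETD3 circle it was 0.350 (0.101 to 1.22), an interval that reaches above 1. Both circles were chosen for this contrast, so the quotients are a description. That interval lay below 1 under 2 of the 6 scalings, at 0.287 (0.0825 to 0.999) with DESeq2 size factors and 0.216 (0.0621 to 0.752) with TMM over every identifier.

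**Figure D3:**
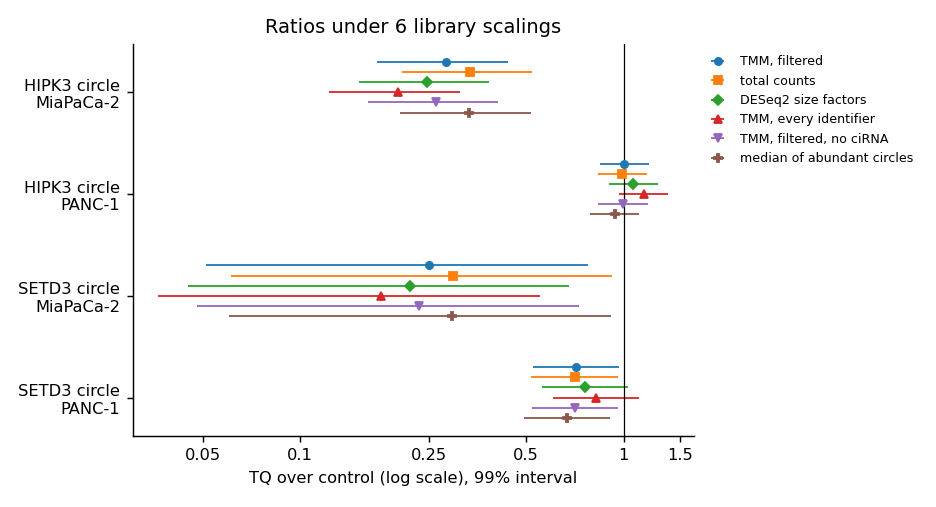
Ratio of TQ to control with its 99% interval (log scale) for each circle and line, with 1 symbol for each of 6 ways to scale the libraries. The HIPK3 circle ran from 0.201 to 0.336 in MiaPaCa-2 and from 0.938 to 1.15 in PANC-1, and the SETD3 circle from 0.177 to 0.297 and from 0.668 to 0.820.

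The count of one circle over that of the other within a library needs no scaling between libraries. The HIPK3 circle had 6.54 times the counts of the SETD3 circle in MiaPaCa-2 control (99% interval 4.41 to 10.1) and 7.40 times in MiaPaCa-2 TQ (2.31 to 36.6). The quotient of TQ over control was 1.13 (0.311 to 4.11), so the 2 circles fell by amounts that could not be told apart, within wide limits. In PANC-1 the HIPK3 circle had 2.59 times the counts of the SETD3 circle in control (2.02 to 3.35) and 3.64 times in TQ (2.86 to 4.67), a quotient of 1.41 (0.994 to 1.99), which includes 1. The 2 circles differed more between untreated lines. The quotient of PANC-1 control over MiaPaCa-2 control was 0.396 (0.247 to 0.633).

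Of the 2, the SETD3 circle differed more between the untreated lines. Its scaled count was 3.08 times as high in PANC-1 control as in MiaPaCa-2 control (99% interval 2.01 to 4.86), and it ran from 2.86 to 3.28 times over the 6 scalings. A ratio of at least 2 with an interval above 1 was met by 281 of 1811 identifiers between the controls, or 15.5%, so such a difference between untreated lines was common. The HIPK3 circle was 1.22 times as high in PANC-1 control (0.998 to 1.49), and its interval lay above 1 under 2 of the 6 scalings, at 1.30 (1.06 to 1.58) with DESeq2 size factors and 1.23 (1.01 to 1.501) with the median of abundant circles.

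Circles of similar abundance in untreated cells, from 0.5 to 2 times the control count, were set beside each circle. Both circles were chosen for low MiaPaCa-2 ratios, so a low place in that line is a description. In MiaPaCa-2 only 6 other identifiers fell in that range for the HIPK3 circle, with 162 to 410 control counts. Their ratios ran from 0.438 to 1.40 with a median of 0.820, and 0 of the 6 lay below the HIPK3 circle. The nearest, hsa_circ_0001009, had 197 counts without TQ and 36 with it, a ratio of 0.438 (0.264 to 0.695), just inside the upper limit of the HIPK3 circle. It was followed by hsa_circ_0001839 with 162 and 33 counts, a ratio of 0.489 (0.285 to 0.795). These were the 2 of the 6 that the rule of size called lower, or 33.3%, against 6.55% of all 1130 tested identifiers. The 1130 include identifiers with as few as 10 counts, whose wider intervals need a lower ratio for a call. The 2 shares thus come from sets of unlike precision, and no difference is read from them. The highest of the 6 were the UBXN7 circle and circRNA1218, with ratios of 1.40 and 0.925. From 1/3 to 3 times the control count there were 18 identifiers, again with 0 below the HIPK3 circle, but the lowest reached 0.311. Of the 18, 7 were called lower, or 38.9%, so such a call was not particular to the HIPK3 circle in this range.

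A choice by control count favours low ratios by construction. Chosen instead by the PANC-1 control count, 5 identifiers resembled the HIPK3 circle, with 9 to 182 counts in MiaPaCa-2 control. Their MiaPaCa-2 ratios ran from 0.804 to 1.13, with 0 called lower. Chosen by the mean of both MiaPaCa-2 libraries, 15 identifiers resembled the HIPK3 circle, with 60 to 410 counts in MiaPaCa-2 control. Their ratios ran from 0.438 to 3.16, with 2 called lower, or 13.3%, and 1 called higher. Of all 1130 tested identifiers, 6.55% were called lower. The HIPK3 circle was the lowest in each of these sets, which hold 5 to 18 circles and share members. It was chosen for a low ratio, so nothing is read from this place.

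For the SETD3 circle, 199 identifiers had 24 to 95 counts in MiaPaCa-2 control. Their median ratio was 0.738, with quartiles of 0.406 and 1.08. A lower ratio than that of the SETD3 circle was found in 29 of them, or 14.6%, of which 15 had 0 counts in TQ. The rule of size called 34 of the 199 lower, or 17.1%, and 4 higher, where 6.55% of all 1130 tested identifiers were called lower. The 1130 include identifiers with fewer counts, which need a lower ratio for a call. This range was also chosen by control count, which favours low ratios by construction. The lowest were ciRNA105, with 61 and 0 counts and an upper 99% limit of 0.218, and circRNA5825, with 56 and 0 counts and an upper limit of 0.238. The highest were circRNA591, with 29 and 41 counts and a ratio of 3.39, and circRNA715, with 60 and 79 counts and a ratio of 3.16. The SETD3 circle was therefore in the lower part of its range but not at its end. By the mean of both MiaPaCa-2 libraries, 22 of 341 identifiers lay below it, or 6.45%, and by the PANC-1 control count 3 of 25, or 12.0%. Of the 341, the rule of size called 26 lower, or 7.62%, and 24 higher. Of the 25, it called 3 lower, or 12.0%, and 0 higher. The 7.62% is near the 6.55% of all tested identifiers, so no excess of lower calls at this abundance is read from the 17.1%.

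In PANC-1, 5 identifiers resembled the HIPK3 circle by control count, with ratios of 0.755 to 1.18 and a median of 0.914. The lowest was hsa_circ_0000448, with 205 and 214 counts, and the highest hsa_circ_0001006, with 546 and 891 counts. The HIPK3 circle lay within this range, and none of the 5 was called lower. The SETD3 circle was near the low end of its own range in PANC-1. Of 25 identifiers with 74 to 209 control counts, whose median ratio was 0.965, only 3 had a lower ratio. These included circRNA4191, with 77 and 66 counts and a ratio of 0.620, and hsa_circ_0012152, with 119 and 107 counts and a ratio of 0.651. At the other end stood hsa_circ_0006646, with 74 and 139 counts and a ratio of 1.36, and hsa_circ_0002346, with 74 and 127 counts and a ratio of 1.24. None of the 25 was called in either direction.

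**Figure D4:**
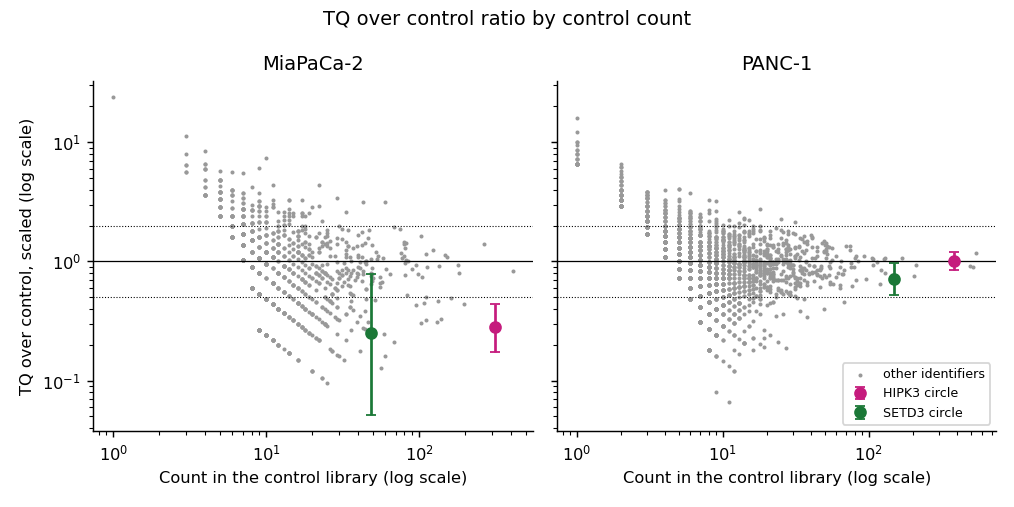
Scaled ratio of TQ to control (log scale) against the control count (log scale) in MiaPaCa-2 on the left and PANC-1 on the right, for identifiers with at least 10 counts over the line and none at 0 in either library, with the HIPK3 and SETD3 circles in colour with 99% intervals and dotted lines at 0.5 and 2. In MiaPaCa-2, where both were chosen for low ratios, the HIPK3 circle, at 0.283, lies under the other circles of its abundance. The SETD3 circle, at 0.25, lies within a broad cloud.

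The 2 circles were also set beside 7 circles whose hosts had been named in earlier work on these data, as a count over a count within each library. Since the 2 were chosen for low MiaPaCa-2 ratios, quotients below 1 in that line are a description. In MiaPaCa-2 the HIPK3 circle fell relative to the circle of CAMSAP1, a microtubule minus-end binding protein. It had 314 counts to 410 in control and 37 to 143 in TQ, a quotient of 0.338 (99% interval 0.202 to 0.564). Relative to the circle of UBXN7, an adaptor of the p97 ATPase, with 263 and 154 counts, the quotient was 0.201 (0.120 to 0.338). The UBXN7 circle itself had a MiaPaCa-2 ratio above 1, of 1.40 (1.07 to 1.83), which lowers this quotient. Over all 7 circles the HIPK3 quotients ran from 0.201 to 0.543, and 5 intervals lay below 1. Those against the circles of ZKSCAN1, a zinc finger protein, and FOXK2, a forkhead factor, did not, at 0.543 (0.243 to 1.22) and 0.419 (0.144 to 1.22). In PANC-1 the same 7 quotients ran from 0.555 to 1.30, and 0 intervals excluded 1.

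The SETD3 circle had quotients of 0.178 to 0.480 in MiaPaCa-2, all 7 under 1, of which 3 had intervals below 1. These were against UBXN7, at 0.178 (0.0516 to 0.614), against CORO1C, an actin-binding protein, at 0.218 (0.0604 to 0.788), and against MBOAT2, a membrane-bound acyltransferase, at 0.208 (0.0447 to 0.971). The circles of UBXN7, CORO1C and MBOAT2 had MiaPaCa-2 ratios above 1, of 1.40, 1.15 and 1.20. In PANC-1 its quotients ran from 0.395 to 0.922, again all under 1. The 2 intervals below 1 there were against the circle of LDLRAD3, a receptor of the LDL receptor family, at 0.395 (0.206 to 0.756), and that of FOXK2 at 0.454 (0.257 to 0.805). Both of those circles had PANC-1 ratios above 1, of 1.81 and 1.57. The 7 quotients of a circle share its own counts and are not independent of each other. Nothing is read from how many lay below 1 in MiaPaCa-2, where the 2 circles were chosen for low ratios.

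**Figure D5:**
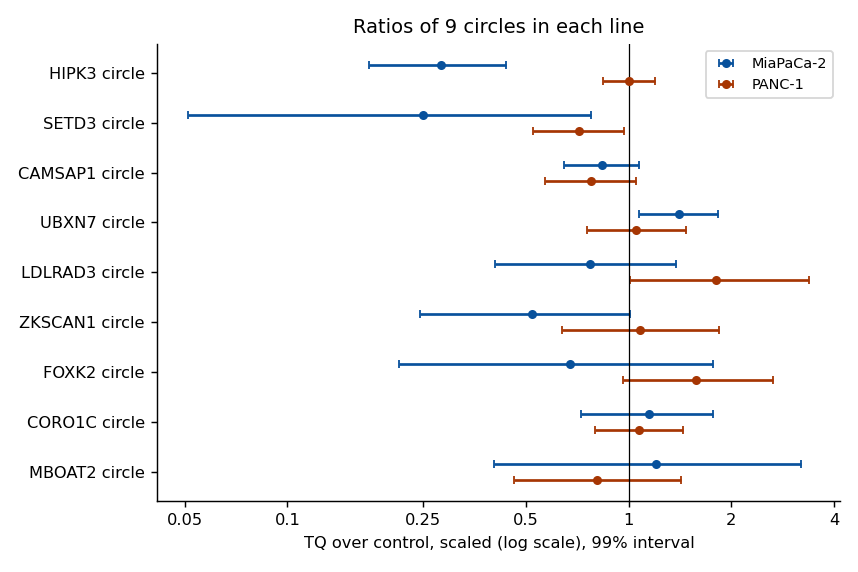
Scaled ratio of TQ to control (log scale) with 99% intervals in MiaPaCa-2 and PANC-1 for the HIPK3 and SETD3 circles and 7 other circles named by host gene. The HIPK3 and SETD3 circles, which were chosen for low MiaPaCa-2 ratios, have the lowest of the 9 there, at 0.283 and 0.25. The SETD3 circle has the lowest PANC-1 ratio, at 0.714.

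The pattern that chose the circles occurred elsewhere in the table. Each line held at least 10 counts of 777 identifiers. Of these, 57 were called lower in MiaPaCa-2 and in neither direction in PANC-1, or 7.34%, the HIPK3 and SETD3 circles included. That share is near the 6.55% called lower in MiaPaCa-2 among all 1130 identifiers tested there. In PANC-1 only 3.19% of 2289 identifiers were called lower, so no pattern particular to 1 line is read from it. Many of the 57 had 0 counts in MiaPaCa-2 TQ. The HIPK3 circle had the most counts of the 57 over the 4 libraries, with 1265, and the SETD3 circle with 347 came after hsa_circ_0001009 with 385.

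Profiles over the 4 libraries were compared by the Euclidean distance between log2(scaled count + 1) values, each centred on its own mean, among identifiers with at least 100 counts in all. Of 173 others, hsa_circ_0044177 was most like the HIPK3 circle, at a distance of 0.33, with 28 and 4 counts in untreated and treated MiaPaCa-2 cells and 47 and 57 in untreated and treated PANC-1 cells. Next came hsa_circ_0002346 at 0.35, with 59, 6, 74 and 127 counts in the same order, where the median distance was 1.95. Most like the SETD3 circle were circRNA3008 at 0.38, with 22, 2, 51 and 52 counts, and hsa_circ_0000371 at 0.49, with 13, 2, 46 and 48 counts, where the median was 2.59. All of these rest on 2 to 6 counts in MiaPaCa-2 TQ. The 2 circles were not each other's nearest. At a distance of 1.17 the SETD3 circle was in place 36 from the HIPK3 circle, and the HIPK3 circle in place 13 from the SETD3 circle.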

How the data were processed

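The counts, taken to be of back-splice reads, came from 4 libraries of 2 cell lines. The deposited table holds whole-number counts per circRNA identifier with no normalisation found in the values. Per the submitters' processing notes, cutadapt, FastQC, Bowtie2, TopHat2, TopHat and edgeR were used with the build GRCh38.p13. No source used here names the circRNA caller. Copies made in PCR could not be removed.

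The members, comparison circles and gene lists were chosen with earlier results of these data known. TMM factors (edgeR 4.0.16, R 4.3.3) came from 827 identifiers that passed filterByExpr with treatment as the group, with library sizes summed over these, and had a geometric mean of 1. Ratios within and between libraries used exact 99% conditional binomial (Clopper-Pearson) intervals, and quotients of ratios used log-normal 99% intervals (scipy 1.17.1, Python 3.11.15). Called lower means at least 10 counts over the 2 libraries, a ratio of at most 0.5 and an interval below 1. No p-value was computed, since the members were chosen on these ratios and each group had 1 library. The code was tested on simulated data. Named identifiers were the 2 circles, the 2 nearest profiles of each, the 2 lowest and 2 highest of each abundance range, and 7 circles named by host. Of these, the second highest HIPK3-like identifier in PANC-1 is given only within its range, and so is the second lowest. Alternatives were 5 other scalings (among them DESeq2 1.42.0 size factors), other abundance ranges, other minimums and a 95% interval. Exons came from GENCODE 29.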

Additional observations from a re-analysis of the deposited data

Results flagged for a closer look

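The HIPK3 circle was below 1 in MiaPaCa-2, at a ratio of TQ to control of 0.283, and marginally above 1 in PANC-1, at 1.003, so that the quotient of the lines was 0.282. The opposite sides of 1 marked it for a closer look. The PANC-1 ratio lay on either side of 1 over the scalings, from 0.938 to 1.15, and the circle was chosen for this contrast. The difference was not tested against a spread between replicates, and dose and line cannot be told apart.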

How the results depend on the processing

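No paired analysis was made beyond the ratios within each line, because each line and treatment had 1 library. A fit of treatment with a term for cell line was not run, since the circles were chosen on the ratios it would test. The MiaPaCa-2 ratios of both circles lay below 0.5 with 99% intervals below 1 under all 6 scalings. With TMM over every identifier the HIPK3 circle had a PANC-1 ratio of 1.15 (0.969 to 1.37) and a quotient of the lines of 0.174 (0.108 to 0.281), both outside the 95% interval of the reported value. Among circles of similar mean count in MiaPaCa-2, 6.45% lay below the SETD3 circle. The number of identifiers called lower in MiaPaCa-2, 74 as reported, was 49 with total counts, 49 with the median of abundant circles, 169 with TMM over every identifier and 189 with a 95% interval. In PANC-1, 73 as reported, it was 150 with no minimum of counts, 24 with at least 20 counts and 125 with a 95% interval. The causes were not tested, apart from the wider or narrower sets that these minimums and intervals make by construction. Of the 2 nearest profiles of the HIPK3 circle, 1 was among the 2 nearest with total counts and 0 with at least 50 counts, and for the SETD3 circle 1 was with at least 50 counts. Low counts limit the SETD3 circle most, which had 5 counts in MiaPaCa-2 TQ.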
